A study of Homo sapiens with 3 samples.

Results

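miR-126 was followed through both deposited tables, as 2 of the 783 mature miRNA names (miR-126-5p and miR-126-3p, the arms cut from opposite sides of its hairpin) and as 1 of the 661 hairpins (hsa-mir-126). The members were chosen by name, with earlier results of these data known. The small RNA came from MV4-11, a cell line derived from a human acute myeloid leukemia that is FLT3-ITD+ and carries the MLL-AF4 fusion, and was sequenced to find which miRNAs the line expresses. The 3 libraries formed 1 group of triplicate cultures with the genotype labelled WT, all infected with an empty-vector (EV) lentiviral CRISPR-Cas9 construct and all grown for 2 weeks before RNA was extracted. There was no untreated, treated or second cell type, so the values describe 1 cell line that carried this vector, and the comparisons are between the arms, between miRNAs and between libraries.

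miR-126 is best known as the miRNA of endothelial cells, the lining of blood vessels, where it supports vessel growth and integrity. In blood it is a miRNA of stem and early progenitor cells, where it restrains signaling through the PI3K and AKT pathway and helps to keep the cells quiescent, and it is known for a role in the self-renewal of leukemia stem cells. miR-126-3p, the arm most often studied, is known to target SPRED1 and PIK3R2, inhibitors of growth factor signaling, and the adhesion molecule VCAM1. miR-126-5p is also known as a working arm, and in endothelial cells it targets DLK1, an inhibitor of Notch signaling.

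The mature sequences are shown first because the seed, bases 2 to 8 of the mature strand, sets most of the targets of a miRNA, and because the arms carry unlike seeds. They are RefSeq sequences on build GRCh38.p14, written 5′ to 3′ with the seed in capitals.
miR-126-5p: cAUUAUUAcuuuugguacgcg
miR-126-3p: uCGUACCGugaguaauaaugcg
The 5p arm is 21 bases long and the 3p arm 22. The 5p seed is made of A and U alone, and the 3p seed holds CG at both ends. Among the 2370 mature names of the RefSeq table, 0 others had the 7-base seed of either arm, and 0 others shared even bases 2 to 7 with it. Of the 783 mature names of these data, 679 had a RefSeq sequence, so the seeds of the others were not compared. No other miRNA was therefore set beside miR-126 for sharing a seed.

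The hairpin is shown with both arms in capitals, to place them in the precursor.
hsa-mir-126: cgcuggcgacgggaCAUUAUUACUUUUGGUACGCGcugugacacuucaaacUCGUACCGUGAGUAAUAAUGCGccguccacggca
It is 85 bases long and lies on chromosome 9 (chr9:136670602-136670686, plus strand). The 5p arm spans hairpin bases 15 to 35 and the 3p arm bases 52 to 73, with 16 bases between them. The longest unbroken Watson-Crick run between the arms was 10 bases, from 5p bases 1 to 10 against 3p bases 11 to 20.

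The host of the hairpin is EGFL7, which encodes a secreted factor of endothelial cells and spans positions 136658856 to 136672678 of chromosome 9 in GENCODE release 29. The hairpin lay in an intron of 5 of the 7 annotated EGFL7 transcripts, in an exon of 0, and the other 2 transcripts did not span it. In all 5 the intron was the same 619 bases, from 136670331 to 136670949, and 271 bases of it preceded the hairpin. The nearest other miRNA gene, MIR6722, started 76291 bases away, and the nearest with a row in the hairpin table, hsa-mir-4479, started 216131 bases away and had a mean of only 52.4 FPKM. No hairpin therefore lay close enough to be counted as a cluster partner.

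Both arms were detected in every library, and miR-126-3p was among the more abundant miRNAs of the line. Levels between miRNAs are given as FPKM, reads per kilobase of the feature and per 1000000 counted reads. Counts of miR-126-3p were 27441, 36866 and 34535 in replicates 1, 2 and 3, out of 10991953 to 12694823 counts assigned to mature miRNAs in a library. Those counts corresponded to 102912, 159676 and 140740.4 FPKM, with a mean of 134443 ± 28901 (SD, n = 3). The level was lowest in replicate 1 and highest in replicate 2, a 1.55-fold range. It ranked 43 of 783 by mean FPKM, and 45, 42 and 48 in replicates 1, 2 and 3, so that its place in the order moved little although its level did. Per 1000000 mature counts it was 2162, 3354 and 2956, with Wilson 95% intervals of 2136 to 2187, 3320 to 3388 and 2925 to 2988 in the same order. The intervals cover counting error of reads only, and they did not overlap. Because the libraries carry no molecular identifiers, PCR copies were counted as separate reads.

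miR-126-5p was far lower but still well above most listed miRNAs. Its counts were 1286, 2350 and 2612, which gave 5064, 10687 and 11177 FPKM in replicates 1, 2 and 3. The mean was 8976 ± 3397 FPKM (SD, n = 3), with rank 141 of 783. Replicate 1 was the low library, and replicates 2 and 3 lay within 1.05-fold of each other. Per 1000000 mature counts it was 101, 214 and 224, with Wilson 95% intervals of 95.9 to 107, 205 to 223 and 215 to 232, and only the intervals of replicates 2 and 3 overlapped. Even so, 82.0% of the listed mature miRNAs had a lower mean than this arm, and 94.5% had a lower mean than the 3p arm.

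**Figure D1:**
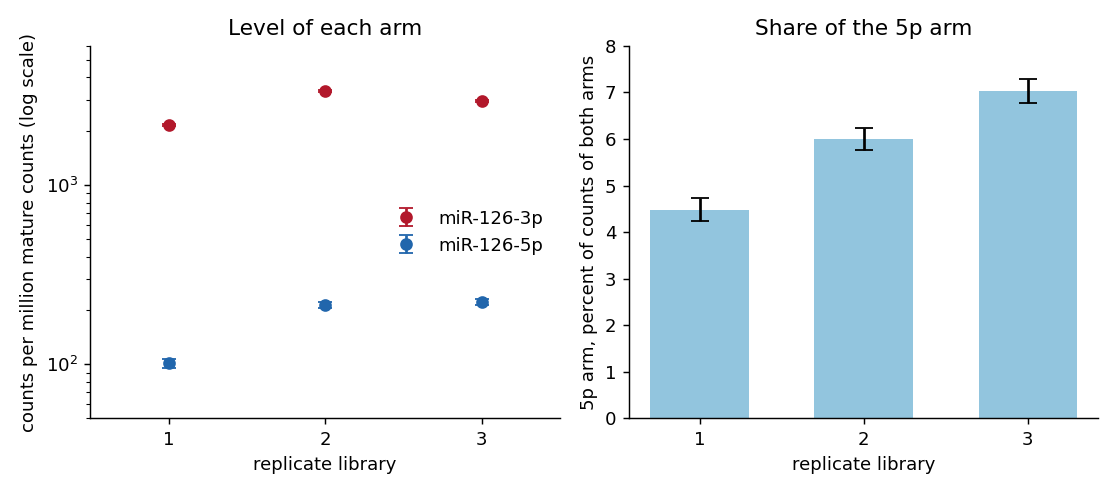
The left panel plots counts per 1000000 mature counts of each arm in the 3 replicate libraries on a log axis, and the right panel plots the share of the 5p arm in the counts of both arms. Error bars are Wilson 95% intervals of counting error. The 3p arm lies between 2162 and 3354 per 1000000 and the 5p arm between 101 and 224, and the 5p share differs between libraries by more than its intervals.

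The hairpin table counts the same reads over the whole precursor. Counts of hsa-mir-126 were 28727, 39216 and 37153, and its mean was 35656 ± 7945 FPKM (SD, n = 3), rank 44 of 661. The FPKM of the hairpin is lower than that of the 3p arm because the same reads are divided by a longer feature. In replicates 1 and 2 the hairpin count was exactly the sum of the 2 arms, and in replicate 3 it exceeded it by 6 reads, or 0.0161% of the hairpin count. Nearly all reads of this hairpin therefore fell on its annotated arms. Over the 3 libraries 0.00571% of hairpin reads lay outside the arms, against a median of 0.0479% over the 182 hairpins with both arms listed in single rows. Of those hairpins, 61 had a lower share outside the arms and 120 a higher one.

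**Figure D2:**
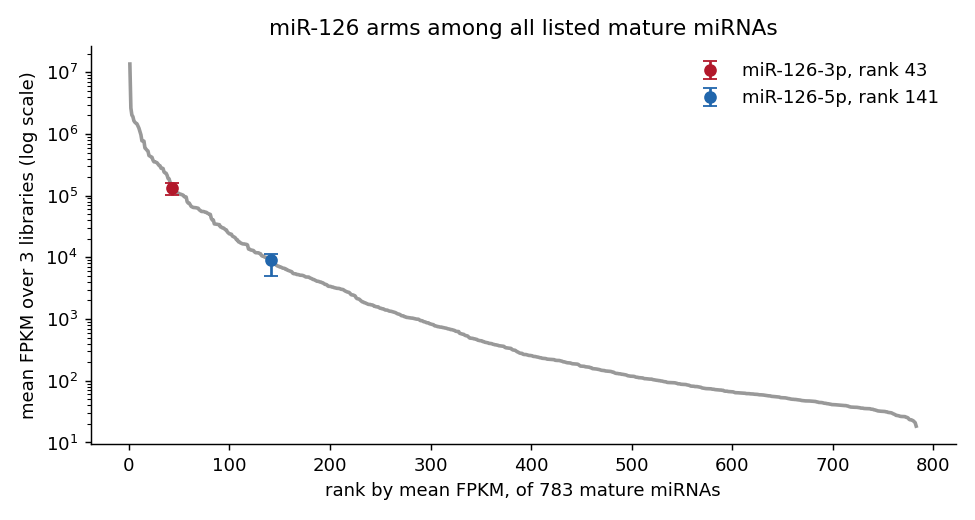
Mean FPKM on a log axis is plotted against rank for all 783 mature miRNA names, as a gray line. The points mark miR-126-3p at rank 43 and miR-126-5p at rank 141, and their bars run from the lowest to the highest library.

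Most neighbours of miR-126-3p in the order of levels lay close to it relative to the SD between libraries. Just above it were miR-128-3p with 187319 ± 47509 FPKM, miR-27b-3p with 164351 ± 40536 and miR-320a with 156220.1 ± 45888 (SD, n = 3). The mean of miR-128-3p was farther from that of miR-126-3p than the larger of both SDs, although it was the higher in only 2 of 3 libraries, while miR-27b-3p and miR-320a lay nearer than that and yet were higher in 3 of 3. Just below were miR-340-5p with 132271 ± 7208, miR-199b-5p with 128467 ± 37400.1 and miR-185-5p with 117351 ± 43288 FPKM (SD, n = 3), each nearer than the larger SD and each above miR-126-3p in 1 of 3 libraries. In all, 17 miRNAs at ranks from 35 to 57 were this near. In every library, 39 miRNAs were above miR-126-3p and 731 below it.

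The order around miR-126-5p was looser. Its neighbours above were miR-424-3p, miR-181a-2-3p and miR-9-3p, and those below were miR-500a-3p, miR-378c and miR-330-5p, with means from 8028 to 9573 FPKM. All 6 lay nearer to it than the larger SD, and each was above it in 1 of 3 libraries. Over a longer stretch, 40 miRNAs at ranks from 114 to 162 were within the larger SD. That SD includes level shifts that many miRNAs shared between libraries, so it does not settle their order. In every library 129 miRNAs were above this arm and 624 below it.

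Against other miRNAs known from blood stem and progenitor cells, miR-126-3p stood second among those listed. The lists here and below were written with earlier results of these data known, so this place depends on the members picked. Of the 13 named, 11 had a row, with a median of 2756 FPKM against 269.5 over all 783 mature names, and the median of the 13 was 479 FPKM with the 2 others set to 0. miR-155-5p, which in blood promotes myeloid expansion, was the only one above miR-126-3p, in 3 of 3 libraries, with a mean of 1100895 ± 124530 FPKM (SD, n = 3). Like most mature names (731 of 783), the other 10 were below miR-126-3p in every library. Closest to it were miR-29a-3p, with 101876 ± 37940 FPKM, and miR-196b-5p, a miRNA of the HOXA cluster, with 54867 ± 30697 (SD, n = 3), and the mean of miR-29a-3p was nearer to that of miR-126-3p than the larger SD.

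Several further stem cell miRNAs were much lower than miR-126-3p. The cluster partners miR-99b-5p, let-7e-5p and miR-125a-5p had 11873 ± 650, 2756 ± 480 and 6008 ± 3253 FPKM (SD, n = 3). Against miR-126-5p, miR-99b-5p was higher in every library, and the other two were lower in every library. The paralog miR-99a-5p had only 30, 17 and 9 counts in replicates 1, 2 and 3. miR-10a-5p, miR-181c-5p, miR-193b-3p and miR-542-5p had means from 41.1 to 479 FPKM, and miR-125b-5p and miR-130a-3p had no row and were given no level. Of the 11 with a row, 4 exceeded miR-126-5p in every library, against 129 of all 783 mature names. The list as a whole thus ran from far below miR-126-5p to above miR-126-3p.

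The miRNAs known from endothelium were compared next, since miR-126 is the defining miRNA of that tissue. Of 15 others with known endothelial or angiogenic roles, 10 had a row, with a median of 299515 FPKM, above miR-126-3p. With the 5 others set to 0 the median of the 15 was 64396 FPKM, below miR-126-3p. Of those with a row, 7 were above miR-126-3p in every library, against 39 of all 783 mature names. The 7 were led by miR-92a-3p with 1548885 ± 310450.2 FPKM and miR-24-3p with 771176 ± 259282 (SD, n = 3). miR-221-3p, miR-222-3p, miR-23a-3p, miR-27a-3p and miR-27b-3p were the others, and all 7 are also made in many blood cells. Below miR-126-3p in every library were miR-210-3p, which responds to hypoxia, with 64396 ± 26170.2 FPKM, miR-132-3p with 9997 ± 1041 and miR-100-5p with 993 ± 179 (SD, n = 3). miR-10b-5p, miR-130a-3p, miR-217, miR-218-5p and miR-296-5p had no row.

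Markers of other cell types were set beside miR-126 in the same way. Of all 783 mature names, 731 were below miR-126-3p in every library and 39 above it. Of 4 miRNAs of vessel wall smooth muscle and stroma, 3 had a row, each was below miR-126-3p in every library, and miR-214-3p had none. miR-143-3p was the highest of them with 13639 ± 2932 FPKM, followed by miR-145-5p with 1088 ± 367 and miR-199a-5p with 412 ± 148 (SD, n = 3). The 3 miRNAs of the red blood cell lineage ran from 71.6 to 1006 FPKM. Among 5 miRNAs of white and maturing myeloid cells, miR-142-3p and miR-142-5p were above miR-126-3p in every library, with 528779 ± 277090.2 and 276995 ± 104128 FPKM (SD, n = 3). miR-223-3p, a miRNA of maturing granulocytes, had 230877 ± 122386 FPKM and was above miR-126-3p in 2 of 3 libraries, with 91627 FPKM in replicate 1 against 102912. miR-223-5p and miR-146a-5p were below miR-126-3p in every library.

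**Figure D3:**
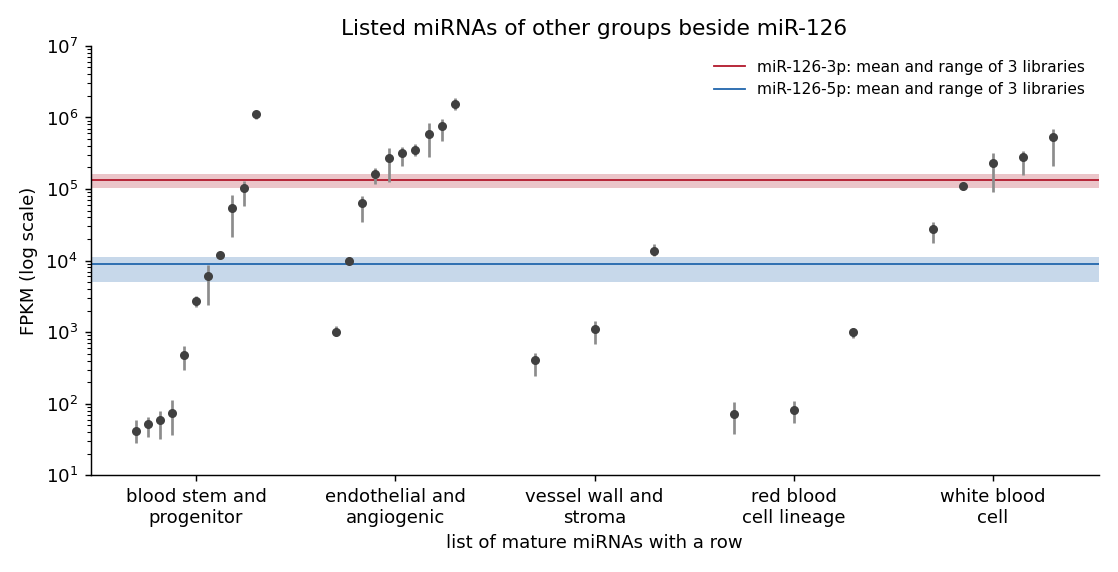
Mean FPKM on a log axis is plotted for every listed miRNA that had a row, by list, with bars from the lowest to the highest of the 3 libraries. The red and blue bands give the range of miR-126-3p and miR-126-5p. The 3p band lies above 10 of the 11 stem and progenitor miRNAs by mean, and above all miRNAs of the vessel wall and red blood cell lists. Among all mature names, 94.5% had a lower mean than miR-126-3p.

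Among hairpins inside introns of protein-coding genes, hsa-mir-126 was one of the higher ones, as it was among all hairpins. Of the 661 hairpins, 648 could be placed in GENCODE, and 316 of these lay in an intron of a protein-coding gene on the same strand. hsa-mir-126 was the 19th of them by mean FPKM, and 44th of all 661 hairpins. The median was 73.3 FPKM over the intronic hairpins and 65.3 over the others that were placed. Numbered copies above it, such as hsa-mir-16-2 and hsa-mir-103a-1, can share a mature arm with another hairpin. How reads of such copies were assigned is not stated, and the place of 19th depends on it. The next above were hsa-mir-106b in MCM7, with 38654 ± 19701 FPKM, and hsa-mir-16-2 in SMC4, with 40746 ± 17287, and the next below were hsa-mir-27b in C9orf3, with 34366 ± 8469, and hsa-mir-340 in RNF130, with 31731 ± 1690.4 (SD, n = 3). All 4 were nearer to hsa-mir-126 than the larger SD. The EGFL7 mRNA was not analysed here, since these libraries hold small RNA.

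The arms were then compared within libraries, to learn how unequal they were. miR-126-3p exceeded miR-126-5p in counts by 21.3-fold in replicate 1, 15.7-fold in replicate 2 and 13.2-fold in replicate 3. Per length the ratios were 20.3, 14.9 and 12.6, since the authors' lengths of the arms were 20 and 21 bases. The edgeR quasi-likelihood test on the counts, with the library as a block, gave a log2 ratio of 5p over 3p of -4.04 ± 0.25 (SE), a 16.4-fold excess of the 3p arm (Benjamini-Hochberg adjusted p = 3.84e-05 over 195 pairs). The direction was the same in 3 of 3 libraries. With TMM factors over the arm columns, which also scale the 5p columns against the 3p columns, the log2 ratio was -4.69. Unequal arms were the rule, as 82.1% of the 195 pairs were called at an adjusted p under 0.05 and an absolute log2 ratio of at least 1, 41.5% toward 3p and 40.5% toward 5p, so a call is what most pairs showed.

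The size of the ratio was ordinary as well. The median absolute log2 ratio over the 195 pairs was 3.17, and miR-126 was 79th by size and 36th of the 102 pairs with the higher 3p arm. The lower arm was among the more abundant of its kind, as miR-126-5p ranked 28th of the 195 lower arms, which had a median of 292 FPKM. Both arms reached 1000 counts in every library in 34 pairs, miR-126 among them. The pairs closest to it in ratio, of 81 others with at least 100 counts of each arm in every library, were miR-1307 at -4.05 ± 0.21, miR-652 at -4.08 ± 0.33, miR-342 at -3.95 ± 0.27 and miR-6503 at -4.20 ± 0.52 (log2 ratio, edgeR SE).

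**Figure D4:**
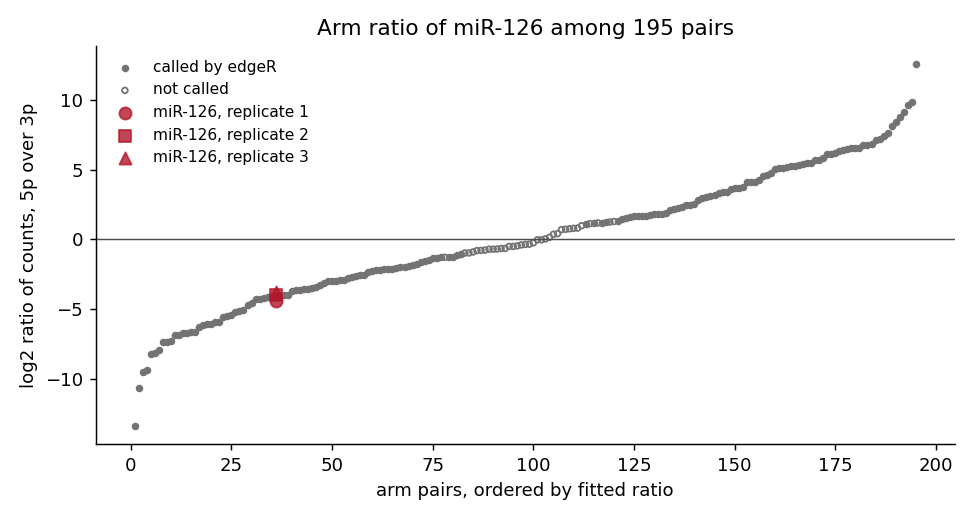
The log2 ratio of 5p over 3p counts is plotted for 195 arm pairs in the order of the edgeR estimate. Filled points were called and open points were not. The red symbols are the ratios of miR-126 in the 3 libraries, -4.42, -3.97 and -3.72, and they lie on the 3p side of the order at place 36.

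The share of the 5p arm differed between libraries. Of the counts of both arms it took 4.48%, 5.99% and 7.03% in replicates 1, 2 and 3, with a mean of 5.83% ± 1.28 (SD, n = 3). Wilson 95% intervals were 4.24 to 4.72%, 5.76 to 6.23% and 6.78 to 7.30%. The 3 intervals did not overlap, so the libraries differed by more than counting error of reads. The SD of the log2 ratio between libraries was 0.35, below the median of 0.45 over the 82 pairs with at least 100 counts of each arm in every library, and 35 of these pairs had a smaller one. From replicate 1 to replicate 3 the log2 ratio of miR-126 differed by 0.69, and 43 of the 82 pairs differed by more. Over those pairs there was little common shift between these libraries, with a median difference of 0.02 and quartiles of -0.67 and 0.87.

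The levels of the arms differed between libraries along with those of many other miRNAs. On the log2(FPKM + 1) scale miR-126-3p was higher in replicate 2 than in replicate 1 by 0.63 and in replicate 3 by 0.45, where the median mature miRNA was higher by 0.48 and 0.57. miR-126-5p was higher than in replicate 1 by 1.08 and 1.14 in replicates 2 and 3, beyond those medians. Replicate 3 differed from replicate 2 by -0.18 for the 3p arm and 0.06 for the 5p arm. When counts were scaled by the median of ratios, miR-126-3p had 31899.5, 35658 and 29531 scaled counts, and its coefficient of variation fell from 21.5% to 9.55%. At least 1000 counts in each library were found for 163 miRNAs, of which 20 had a lower scaled coefficient, and the median of the 163 was 21.7%. miR-126-5p had 1495, 2273 and 2234 scaled counts, and its coefficient fell from 37.8% to 21.9%, close to that median. Counting alone would give about 0.551% for the 3p arm and 2.19% for the 5p arm, which leaves out the differences between cultures and PCR copies that the coefficients include.

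The profile of each arm over the 3 libraries was compared with those of 329 other miRNAs with at least 100 counts in every library, by Euclidean distance on centred log2(FPKM + 1). Those most like miR-126-3p were miR-877-5p, let-7i-3p, miR-664a-3p, miR-1260b and miR-135b-5p, at distances from 0.04 to 0.07. Those most like miR-126-5p were miR-3613-5p, miR-142-5p, miR-29a-3p, miR-29c-3p and miR-1306-5p, at distances from 0.03 to 0.06. The arms of miR-126 were not close to each other, at a distance of 0.49, which placed the 5p arm 164th in likeness to the 3p arm and the 3p arm 119th in likeness to the 5p arm. With only 3 libraries these distances are a description of the same cultures and libraries.

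The base content of the arms was examined because it differed, with G or C at 38.1% of bases in the 5p arm and 45.5% in the 3p arm, against a median of 50% over the 679 mature names with a RefSeq sequence. Among 285 of these with at least 100 counts in every library, Spearman's rho between G and C content and the log2 ratio of replicate 3 to replicate 1 was -0.10, a description across miRNAs of the same libraries. The median log2 ratio was 0.60 for the 54 miRNAs with 30 to 40% G or C, which include the 5p arm, and 0.54 for the 92 with 40 to 50%, which include the 3p arm. The 5p arm, at 1.14, was above the median of its class and within its quartiles of 0.08 and 1.29.

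The ends of the arms were compared with those of other pairs, since the strand that enters Argonaute is known to depend on the 5′ end, with a preference for a 5′ U and for the less tightly paired end. The higher arm of miR-126 starts with U and the lower with C. Of the 131 called pairs with sequences for both arms, the higher arm started with U in 57.3% and the lower arm in 21.4%, and 29 pairs had the combination of miR-126, against 3 with the reverse. The number of A or U among the first 4 bases was counted as well, which does not measure pairing. By this number miR-126 was on the less frequent side, with 2 in the higher and 3 in the lower arm. In 34 of the 131 pairs the higher arm had the fewer, in 64 it had the more, and in 33 the number was equal. Whether the ends set the arm preference of miR-126 was not tested.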

How the data were processed

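Small RNA of 3 replicate cultures was sequenced on an Illumina instrument from New England Biolabs libraries. The submitters' processing notes name Novoalign 2.08.03 and the builds hg19 and mm10, without roles. The authors counted reads over miRBase release 21, and the deposited tables give whole read counts per mature arm or hairpin and library, not normalized. The deposited FPKM were computed by the authors from these counts, a feature length and a library total. Lengths recovered from them were 20 bases for miR-126-5p and 21 for miR-126-3p, 1 less than in RefSeq. Every listed row reached 10 counts in at least 1 library, so a miRNA without a row was given no level. Ligation efficiency depends on sequence, so levels of different miRNAs are not molar ratios.

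The 851 mature rows were summed to 783 names; 55 names had several rows, and both arms of miR-126 had 1. Mature counts were 12694823, 10991953 and 11682129 in replicates 1, 2 and 3. The labels do not say more than triplicate cultures, so p-values refer to these samples alone. They set the arm ratio against its spread between libraries, with variance estimates partly pooled over the pairs. Arm counts of all 195 pairs with both arms above 0 in every library entered edgeR 4.0.16 in R 4.3.3, whose quasi-likelihood fit had the library as a block, library totals as depth and Benjamini-Hochberg adjustment. The SE was the log2 ratio divided by the square root of F. Alternatives used limma 3.58.1 on log2 FPKM ratios, DESeq2 1.42.0, other filters and scalings, and each library left out. The test was checked on simulated data. Positions and sequences came from RefSeq (GRCh38.p14) and GENCODE release 29. Mature sequences were matched by name for 679 of 783 names (86.7%). Python 3.11.15, pandas 2.3.3 and scipy 1.17.1 were used.

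The members and the lists were chosen with earlier results of these data known. miRNAs named with values were both arms and the hairpin, the 3 neighbours on each side by mean FPKM, the 5 nearest library profiles, the 4 pairs nearest in arm ratio, and the members of the lists; the neighbours among intronic hairpins were chosen after their values were seen.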

Additional observations from a re-analysis of the deposited data

How the results depend on the processing

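The arm preference of miR-126 kept its direction and its call in all 11 alternatives. The log2 ratio of 5p over 3p was -3.97 with limma on FPKM ratios and -4.69 with TMM factors over the arm columns, which also scale the 5p columns against the 3p columns, and it ran from -4.19 to -3.85 with one library left out. Adjusted p-values ran from 5.3e-89 with DESeq2 to 0.00133 with edgeR without replicate 2. With edgeR they were 7.98e-59 without replicate 1 and 7.32e-14 without replicate 3, so their size was unstable with a library left out. Of 195 pairs, 160 were called with edgeR, 158 with limma, 164 with DESeq2 and 166 with TMM factors. With at least 10 counts of both arms in every library 124 were called of the 148 then tested, and with one library left out 141 to 169 were called of 195 or 196. The levels of both arms and the hairpin moved by less than their SD in all 15 alternatives, which leaving out a library cannot exceed by construction. The mean of miR-126-5p was 10932 FPKM without replicate 1. Of 17 recomputed ranks, 3 moved by more than the spread between libraries. miR-126-3p ranked 48 and miR-126-5p 159 when the rows of repeated names were ranked separately, and hsa-mir-126 ranked 51 by counts per 1000000. With miRNAs that had no row set to 0, the median of the stem and progenitor list was 479 in place of 2756 FPKM and that of the endothelial list 64396 in place of 299515. No pairing of samples between groups was possible because the series holds 1 group. The arm test paired the arms within each library by taking the library as a block. A lower depth would limit the 5p arm first, whose lowest count was 1286.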
